A study of Rattus norvegicus with 8 samples.

Results

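Liver RNA of 4 Wistar rats that resisted obesity on a high-fat diet (obesity-resistant, OR) was set against RNA of chow-fed rats on 4 arrays, the ones titled OR rat 1 to 4, out of 8 arrays in the series. The OR rats had eaten the high-fat diet for 16 weeks. The reference was a single pool of equal RNA amounts from 4 rats kept on standard chow for the same time. Each OR rat was labelled with Cy3 and shared its array with the pool in Cy5. The other 4 arrays hold obesity-prone (OP) rats on the same diet against the same pool, and they are used here for the estimate of spread and for side-by-side values. The labels give neither sex nor age, nor the rule that divided OR from OP, and no array had the dyes swapped. The question a ratio to the pool addresses is how the liver of a rat that resisted obesity on a high-fat diet differs from that of a chow-fed rat.

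The liver takes up dietary fat, burns it in mitochondria and peroxisomes, stores it as triglyceride and exports it in lipoproteins. On a high-fat diet, transcripts of fatty acid oxidation are typically induced and those of fat synthesis restrained, under nuclear receptors and sterol-regulated factors. Outbred rats such as Wistar differ among themselves in how much weight they gain on such a diet. Which transcripts the spots measure cannot be said here. The files pair neither spots nor table rows with genes, so liver markers could not be checked, no sequence is printed, and spots are named by grid position (Sr and Sc for the block, R and C for row and column within it).

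Ratios are log2(Cy3/Cy5), OR rat over pool, after background correction and loess normalization within each array, and a positive value is higher in the OR rat. The authors' deposited log ratios run the other way. Rows of their table were matched to spots on 7 arrays and compared on the array left out. They correlated with rat over pool at r of -0.985, -0.992, -0.983 and -0.992 for OR rats 1 to 4, over 1342 to 2366 matched rows, whereas the series text describes a ratio of green to red. The direction here follows the dyes named in the labels. Were those dyes the other way round, each sign would turn. Cy3 was above background at 86.7% to 93.4% of the 12288 spots on the OR arrays, and Cy5 at 80.9% to 91.7%. Before loess, and with the repeated spots described next left out, the median log2 ratio was -0.50, -0.61, -0.56 and -0.66 in OR rats 1 to 4, so all 4 arrays were brighter in the pool's dye.

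Part of every array appears to repeat the same probes, which gives a measure of the error of a single spot. An array has 48 blocks of 256 spots. At each of the 16 positions in the first row of a block, mean intensity varied between blocks with an SD of at most 0.54 log2 units. At the other 240 positions that SD was at least 1.07, with a median of 1.61. The first row thus holds 16 sets of 48 like spots, 768 in all. In the authors' table, rows matched to this row had an ID beginning with c in 40 of 41 cases, against 235 of 2402 for the other rows. The files mark no controls, and what these sets are was not tested. They were left out of all counts below, since 1 set would otherwise be counted 48 times.

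Within an OR array, the repeats agreed closely where both dyes were bright. At the 8 positions detected in both channels at all 48 spots of all 4 OR arrays, the SD of the log2 ratio over the 48 spots was 0.058 to 0.11 (the median of the 4 arrays, by position). Between the 4 OR arrays, the SD of the position means was 0.065 to 0.25, and it exceeded the SD within arrays at 5 of the 8. At the other 8 positions, most of them dim, the median SD within arrays reached 0.44. On a single array it reached 0.94, at position 15 in OR rat 4.

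Position 7 of the first row shows how precisely 1 array can be read. Its mean ratio was -0.84 in OR rat 1, -0.42 in OR rat 2, -0.56 in OR rat 3 and -0.25 in OR rat 4, with SDs of 0.10, 0.079, 0.085 and 0.075 over 48 spots. All 4 OR rats lay below the pool there, and their arrays were spread over 0.59 log2 units, several times the error of a single spot. That error leaves out whatever moves all 48 spots of an array together, so rat and array cannot be told apart. Of the 8 bright positions, this one had the largest ratio of SD between arrays to SD within. The ratio was 3.04, against 0.63 to 2.35 at the others. The OP rats read -0.24, -0.18, -0.20 and -0.48 at the same position, so the groups overlapped. Position 12 lay above the pool in every OR rat, at 0.55, 0.22, 0.26 and 0.33, with SDs of 0.079, 0.10, 0.078 and 0.059. The OP rats read 0.16, 0.54, 0.50 and 0.35 there.

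**Figure D1:**
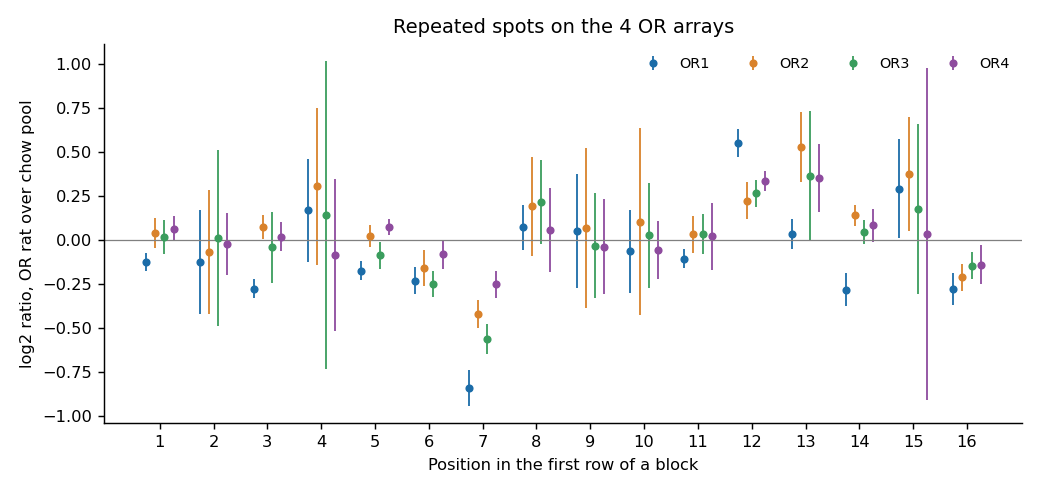
Mean log2 ratio (OR rat over pool, y axis) at each of the 16 positions in the first row of a block (x axis), with the SD over 48 spots as error bars and 1 colour for each OR array. Bars are short at bright positions such as 7 and 12, where the arrays stand apart, and long at dim positions such as 4 and 15.

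OR livers differed from the chow pool at 2047 of 10766 tested spots (19.0%), of which 1004 were higher (9.33%) and 1043 lower (9.69%), at a limma adjusted p under 0.05. The differences were mostly small. The median absolute log2 ratio of the called spots was 0.25, or 1.19-fold, against 0.11 over all tested spots. At 83 called spots (0.771%) the mean differed at least 1.5-fold, 39 higher and 44 lower, and at 16 at least 2-fold, 7 higher and 9 lower. All 4 OR rats had the same sign at 42.9% of the tested spots.

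The number of spots that passed fell whichever rat was dropped. It was lowest, at 869, when OR rat 2 was dropped. Dropping OR rat 1 left 1173, OR rat 3 1193 and OR rat 4 1468. Leaving out 1 OP rat gave 1678 to 1889. Each such fit has fewer arrays to estimate the spread, and the part of this in the falls was not tested. The count was 794 when the OR arrays were fitted without the OP arrays. The count of 83 at 1.5-fold or more lay between 63 and 99 with 1 OR rat left out, and it was 300 in the authors' values and 0 within either header day in limma. The authors' values gave 2721 spots in all, of 10111 tested. Image files of OR rat 1 carry a different day in their header from those of OR rats 2 to 4. Days are taken here by day and month alone, since the year written for OR rat 2 differs from that for OR rats 3 and 4. Within the day of OR rats 2 to 4, which holds no OP array, 0 of 9917 spots passed in limma, with 2994 at an unadjusted p under 0.05. Few residual degrees of freedom are left in that fit. The 2 highest and 2 lowest called spots, named below, had mean log2 ratios of 1.751, 1.357, -1.609 and -1.405 in it. Within the day of OR rat 1, which holds 2 OP arrays as well, 0 of 11076 passed and 1556 had an unadjusted p under 0.05, the lone OR array being assumed to vary like the OP arrays. With the day as a random block the count was 2912, at a consensus correlation within days of -0.128. With the header year counted as well it was 2393, at a consensus correlation of -0.155. A negative correlation narrows the standard error, so neither count is a stricter one than 2047. These tests leave out the spread between chow-fed rats, since the pool is 1 sample. With all rats in Cy3, diet and dye effects of single spots cannot be told apart.

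The highest called spot was Sr03Sc04R13C06. It read 1.48, 2.89, 2.25 and 0.11 in OR rats 1 to 4, a mean of 1.68 ± 1.20 (log2 ratio, SD, n = 4) or 3.21-fold above the pool, with a limma adjusted p of 0.0188. OR rats 1 to 3 were far above the pool and OR rat 4 close to it. Leaving out any one of the 3 high rats ended the call, with limma adjusted p of 0.052, 0.0639 and 0.0645 for rats 1, 2 and 3 in turn. The spot also did not pass when the OR arrays were fitted without the OP arrays (limma adjusted p = 0.0719). Its SD was 0.43 among the OP rats, narrower than among the OR rats. The OP rats read 0.36, 0.19, 1.05 and 0.94, within the range of the OR rats, and OR minus OP was 1.05 with a limma adjusted p of 0.308. In the scanner files its Cy3 signal was 633, 978, 683 and 222 intensity units on the 4 OR arrays, whereas Cy5 stayed between 254 and 370.

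Spot Sr10Sc01R04C07 was high in all 4 OR rats. It read 2.24, 0.95, 1.29 and 1.83, a mean of 1.58 ± 0.57 (log2 ratio, SD, n = 4), or 2.99-fold above the pool, with a limma adjusted p of 0.00448. OR rats 1 and 4 were the highest. The OP rats read 1.54, 0.41, 0.89 and 0.94, so the groups overlapped, and OR minus OP was 0.63 with a limma adjusted p of 0.288.

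Both of the lowest called spots were bright and low in OR and OP rats alike. Spot Sr03Sc02R11C09 read -1.31, -1.89, -1.15 and -1.79 in OR rats 1 to 4, a mean of -1.54 ± 0.36 (log2 ratio, SD, n = 4, limma adjusted p = 0.00264). The pool was thus 2.90-fold above the OR mean, and the OP rats read -1.64, -1.67, -0.80 and -1.76. Spot Sr06Sc01R04C02 read -1.20, -1.65, -0.78 and -1.78 in the OR rats, a mean of -1.35 ± 0.45 (log2 ratio, SD, n = 4, limma adjusted p = 0.00502), against -1.59, -1.59, -0.67 and -1.69 in the OP rats. OR rat 3 was the least changed of the OR rats at both spots. OR and OP share the pool, so values below it in both are not independent of each other. OR minus OP was -0.069 at the first of these spots and 0.031 at the second (limma adjusted p of 0.891 and 0.962).

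**Figure D2:**
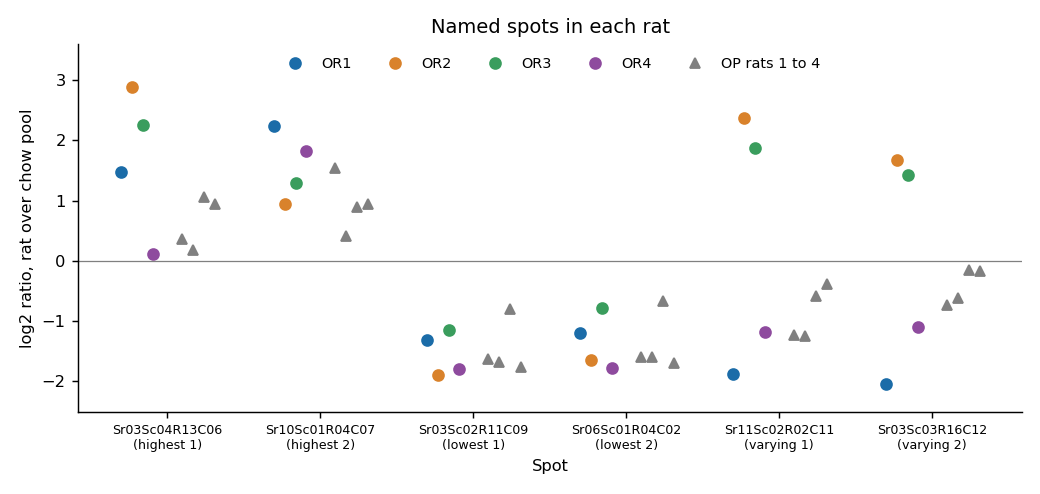
Log2 ratio to the chow pool (y axis) of 6 spots (x axis) in each OR rat (coloured circles) and each OP rat (grey triangles). The 2 highest spots are above the pool in every OR rat, the 2 lowest below it, and at the 2 most variable spots OR rats 2 and 3 are above the pool while OR rats 1 and 4 are below.

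Tested spots were cut into 10 groups of equal size by mean intensity over the OR arrays, numbered as deciles from 1, the dimmest, to 10, the brightest. The median absolute mean ratio lay between 0.098 (decile 7) and 0.12 (decile 2) on the log2 scale, with 0.11 in decile 1 and 0.12 in decile 10. Single arrays did not share this course. The median absolute ratio was 0.13 in decile 1 and 0.23 in decile 10 for OR rat 1, but 0.16 and 0.11 for OR rat 3. For OR rat 2 it was 0.13 and 0.15, and for OR rat 4 0.11 in both. Mean ratios of at least 1.5-fold numbered 5, 14, 18, 12, 4, 7, 7, 16, 7 and 32 from decile 1 to decile 10. The share called was 12.3% in decile 1, 24.0% in decile 8 and 19.3% in decile 10, beside 19.0% over all tested spots. The median SD between the 4 OR rats was 0.14 in decile 1, 0.10 in decile 8 and 0.14 in decile 10. Directions were also uneven, with 84 spots higher and 48 lower in decile 1, against 85 higher and 123 lower in decile 10. Dim spots could enter the test on 1 channel alone. In decile 1, 63 of 1076 spots had no flag and both channels above background on all 4 OR arrays. Requiring both channels on all 8 arrays gave 847 higher and 1004 lower of 8191 tested spots, beside 1004 and 1043 as reported. At 1.5-fold or more it gave 25 higher and 42 lower, beside 39 and 44. When arrays were centred on their median and not by loess, the share called was 22.1% in decile 1 and 30.1% in decile 10. The median absolute mean ratio was then 0.17 in decile 1 and 0.14 in decile 10, so its course over intensity depends on the normalization. The offset of 50 added to both channels also pulls ratios of dim spots toward 0, and its part was not tested.

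Not all large mean differences passed the test. In deciles 8 to 10, 53 of 55 spots with a mean ratio of at least 1.5-fold passed the test. In deciles 1 to 7 the numbers were 3 of 5, 7 of 14, 4 of 18, 6 of 12, 4 of 4, 0 of 7 and 6 of 7, all in limma. Over all tested spots 83 of 122 passed.

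**Figure D3:**
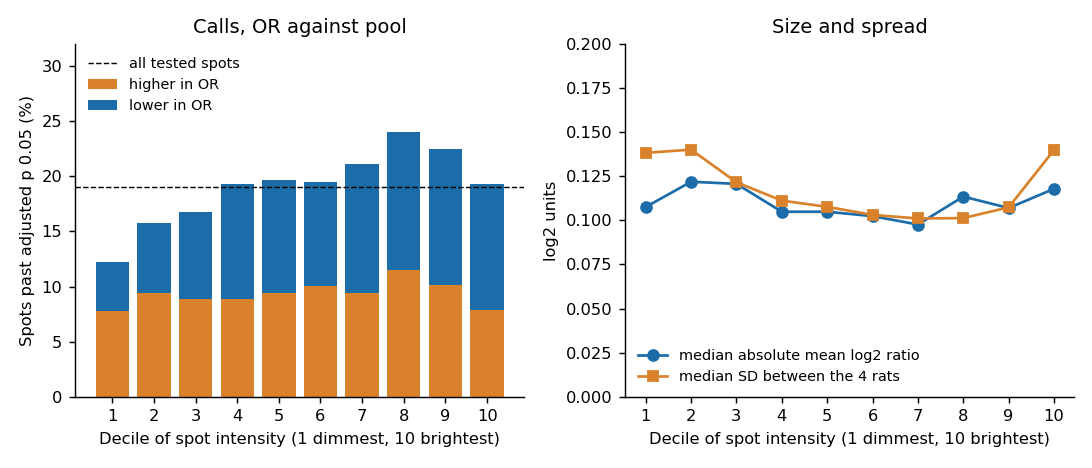
Left, percent of tested spots past a limma adjusted p of 0.05 (y axis) by decile of spot intensity (x axis, 1 dimmest), split into higher and lower in OR, with the share over all tested spots as a dashed line at 19.0%. Right, the median absolute mean log2 ratio and the median SD between the 4 OR rats in the same deciles. The share called is lowest in decile 1 at 12.3%, and the SD is about as large in decile 10 as in decile 1, at 0.14 in both.

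The distance of a typical spot from the pool did not pass a test between OR and OP rats. The median absolute log2 ratio of single arrays was 0.15, 0.13, 0.13 and 0.11 in OR rats 1 to 4, a mean of 0.129 ± 0.018 (SD, n = 4), against 0.153 ± 0.028 in OP rats (SD, n = 4). The exact two-sided permutation p was 0.229, and 0.314 adjusted over 2 measures. The share of spots at least 1.5-fold from the pool was 2.30%, 3.25%, 5.38% and 2.88% in OR rats 1 to 4, against 5.48%, 5.47%, 1.91% and 8.62% in OP rats 1 to 4 (exact permutation p = 0.314). With 70 assignments the smallest possible p is 0.0286. With median centring, the difference in the median was -0.068 (OR minus OP) and reached that smallest p. In the authors' values the direction turned, with a difference of 0.000812 in the median (exact permutation p = 0.771) and of 0.26 percentage points in the share (exact permutation p = 0.83).

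By decile of intensity, the gap between OR and OP arrays was widest at the brightest spots. There the median absolute log2 ratio was 0.23, 0.15, 0.11 and 0.11 in OR rats 1 to 4, against 0.24, 0.32, 0.20 and 0.28 in OP rats 1 to 4. OR rat 1 lay among the OP values, and the other OR rats lay below all of them. OR rat 1 shares its header day with OP rats 3 and 4, whereas no OP array carries the header day and month of OR rats 2 to 4. Group and header day can thus hardly be told apart, here or over all spots. The exact permutation p was 0.0571, and 0.286 adjusted over the 10 deciles, so the difference did not pass. The comparison by decile was added after the values had been seen.

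Across the tested spots, which are not independent replicates and which share the pool, Pearson's r between 2 OR arrays ran from 0.239 (rats 3 and 4) to 0.412 (rats 1 and 4). What r the shared pool and the dyes would give by themselves was not tested. Among 8327 spots with no flag and both channels above background on all 4 OR arrays, the range between the highest and the lowest rat had a median of 0.24 log2 units. At 156 of them (1.87%) it was at least 1, a 2-fold range. Just inside and just outside that limit the ranges were 1.00 and 0.999. Of the 156, 15 (9.6%) passed the test against the pool, beside 1717 of the 8327 (20.6%). The standard error of that test grows with the range that chose the 156. At 127 of them the rats lay on both sides of the pool, which a wide range favours. With signal medians in place of signal means, 100 spots reached a 2-fold range. Each rat was on 1 array, so rat and array cannot be told apart, and these ranges have no test.

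Taking the dyes apart gives a range for each channel, and Cy5 held the same pool on every array. The Cy3 range still holds the labelling and hybridization of each array, so it does not tell rat from array either. Over all 8327 spots the Cy3 range exceeded the Cy5 range at 47.0%. Median ranges were 0.55 in Cy3 and 0.56 in Cy5, both wider than the 0.24 of the ratio. Among the 156 variable spots Cy3 had the larger range at 104 (66.7%). At 40 the Cy3 range was at least 1 and the Cy5 range under 0.5. At 19 it was the reverse, so there the pool's dye moved and the rats' dye did not move as far.

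For each variable spot, the widest gap between neighbouring values was taken to split the rats. The most frequent split, at 40 spots (25.6%), put OR rats 2 and 3 above OR rats 1 and 4, and Cy3 had the larger range at 36 of these 40. Other splits of 2 against 2 rats held 3 spots in all, 2 with rats 1 and 3 on top and 1 with rats 1 and 4 on top. Among all 8327 spots, at any range, the split with OR rats 2 and 3 on top made up 5.62%, and among the 639 with a range of at least 1.5-fold 13.8%, fewer than the 18.3% with OR rat 3 alone on top. In all, 7 splits held 14 to 40 of the 156 spots each. At another 29 spots OR rat 2 stood alone above the others, with Cy3 the wider channel at 20.

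Which dye had the wider range differed between splits. OR rat 3 was alone at the bottom at 14 spots, and Cy3 had the larger range at 0 of them. Their median range was 0.40 in Cy3 and 1.44 in Cy5. OR rat 4 was alone at the bottom at 18 spots, with Cy3 the wider at 6 and median ranges of 0.73 in Cy3 and 1.41 in Cy5. At the 1 spot with OR rat 2 alone at the bottom, the range was 1.34 in Cy3 and 0.415 in Cy5. OR rat 1 stood alone above the others at 18 spots, OR rat 3 at 18 and OR rat 4 at 15, and there Cy3 was the wider channel at 17, 10 and 12.

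**Figure D4:**
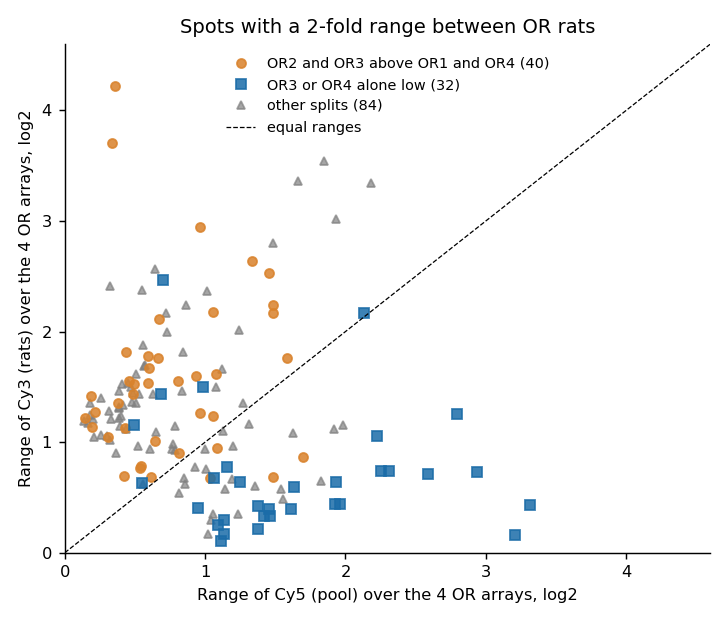
Range over the 4 OR arrays in Cy3, the rats' dye (y axis), against the range in Cy5, the pool's dye (x axis), both in log2 units, for the 156 spots with a 2-fold range in the ratio. Of the spots with OR rats 2 and 3 on top, 36 of 40 lie above the dashed line of equal ranges, whereas most spots with OR rat 3 or OR rat 4 alone low lie below it.

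The 2 most variable spots both belong to the split that put OR rats 2 and 3 on top. Spot Sr11Sc02R02C11 read -1.88, 2.37, 1.88 and -1.18 in OR rats 1 to 4, a range of 4.24 log2 units. Its Cy3 signal was 762, 9387, 5316 and 899 intensity units, while its Cy5 signal was 4170, 3274, 2368 and 3171. After normalization the range was 4.22 in Cy3 and 0.36 in Cy5. OR rats 2 and 3 were thus far above the pool and OR rats 1 and 4 far below it, while the pool's signal varied by 0.36 log2 units. The OP rats read -1.23, -1.24, -0.59 and -0.39, all below the pool, above OR rat 1 and below OR rats 2 and 3. Because the OR rats opposed each other, their mean of 0.30 ± 2.14 (log2 ratio, SD, n = 4) did not pass the test (limma adjusted p = 0.777).

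Spot Sr03Sc03R16C12 repeated the pattern. It read -2.04, 1.68, 1.43 and -1.10 in OR rats 1 to 4, with ranges of 3.71 in Cy3 and 0.33 in Cy5. Its mean of -0.0085 ± 1.85 (log2 ratio, SD, n = 4, limma adjusted p = 0.993) is that of 4 rats that each differed by over 1 log2 unit from the pool. The OP rats read -0.74, -0.61, -0.16 and -0.16.

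Taken over the 40 spots of this split, the median ratio was -0.47 in OR rat 1, 0.89 in OR rat 2, 0.72 in OR rat 3 and -0.14 in OR rat 4. At 26 of the 40, rats 2 and 3 lay above the pool and rats 1 and 4 below it. The order of the OR rats is fixed by the choice of spots, and the split was singled out after its count was seen. The medians at these spots were 0.0095, -0.017, -0.015 and 0.16 in OP rats 1 to 4. Their range between OP rats had a median of 0.28, and at 1 of the 40 spots it reached 1. Spots chosen for a wide range among OR rats favour a narrower range elsewhere, and over all 156 variable spots the median range between OP rats was 0.26.

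These 40 spots were bright. Their median intensity, the mean of both channels on the log2 scale, was 11.5, against 8.61 for all 156 variable spots and 8.97 for the 8327. Decile 10 held 23 of them and 27 of the 156. They lay in 23 of the 48 blocks, and whether they cluster on the array was not tested. In their image headers, OR rats 2, 3 and 4 carry the same day and month, with another year for OR rat 2, and OR rat 1 carries another day. The part of array or batch in the split was not tested.

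**Figure D5:**
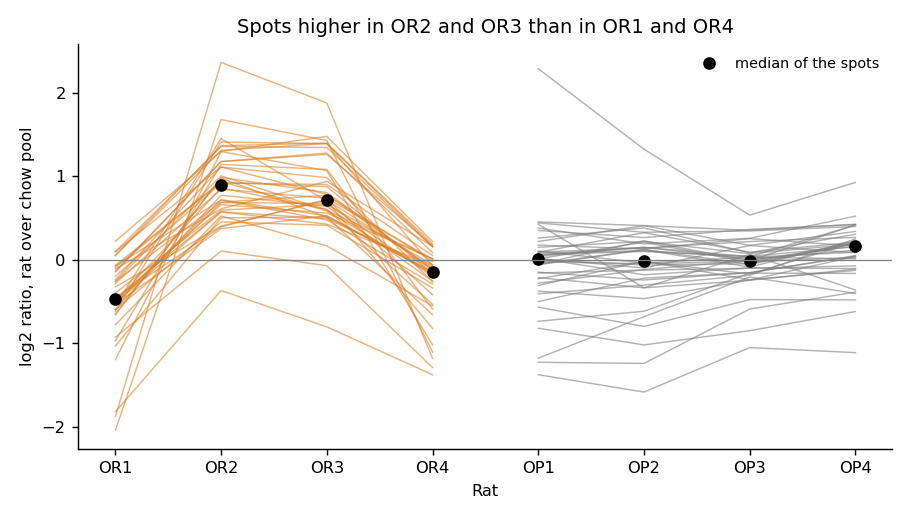
Log2 ratio to the chow pool (y axis) in each OR rat and each OP rat (x axis) for the 40 spots at which OR rats 2 and 3 stood above OR rats 1 and 4. Each line is 1 spot and black points are medians, which are 0.89 and 0.72 in OR rats 2 and 3 and between -0.017 and 0.16 in the OP rats.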

How the data were processed

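The members and comparisons were chosen with earlier results of these data known. The authors deposited 2 scanner files per array with the signal and background intensity of each spot, made with ImaGene 5.1 and fixed circles per the file headers, neither background-subtracted nor normalized. They also deposited a table of 12288 log ratios per array, taken here as log2, which the authors background-subtracted and LOWESS-normalized per the series text. Its log base is not given in the sources used here. In the matched rows, the slope of its values on log2(Cy3/Cy5) was -0.964, -1.1, -1.121 and -1.352 for OR rats 1 to 4. The part of these slopes in the count of 300 spots at 1.5-fold or more was not tested. Medians of the OR columns were -0.0010, 0.0060, 0.010 and -0.0065. None of 24576 spot and row IDs matched a gene ID, symbol or accession of the RefSeq table of GRCr8, and 1 row number that equals a gene synonym was not taken as a name.

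Signal means were corrected with normexp (background medians, offset 50) and loess-normalized over the whole array (limma 3.58.1 under R 4.3.3). Values with manual flag 1 were set missing. Detection of a channel required a signal mean more than 2 background SDs above the mean background. Tests covered spots with 3 or more values per group and either Cy3 detected throughout a group or Cy5 detected on a share of arrays of 0.5 or more. The 768 repeated spots entered the loess fit but no test, a choice made after they were seen, and 754 other spots were left out. OR and OP means were fitted together (lmFit, eBayes, 6 residual degrees of freedom, Benjamini-Hochberg over 10766 spots), and the OR mean was tested against 0. The fit was tested on simulated data. Single channels were taken after Aquantile. Named spots are the 2 highest and 2 lowest called spots with 1 sign in all 4 OR rats, no flag and both channels detected, and the 2 with the greatest SD among the variable ones. For the direction of the authors' table, a row was matched where the nearest spot was under 0.5 times as far as the second nearest, after a lowess fit of span 0.3. The number of arrays limits the precision. Gene lists were not used, for want of gene names.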

Additional observations from a re-analysis of the deposited data

Results flagged for a closer look

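Of 35 groups of 4 OR values examined, 2 held 1 array far from the other 3, where chance gives about 1 in 20. The median Cy5 signal was 616 intensity units on the array of OR rat 4, the nearest other OR array being at 486.2. At position 11 of the repeated first row, OR rat 1 had a mean log2 ratio of -0.1075 and the nearest other OR rat 0.02105.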

How the results depend on the processing

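The settings for repeated spots and for the header year were chosen after seeing the data. Spots past the threshold against the pool, 2047 as reported, numbered 794 with OR arrays alone, 1166 with the replicate block, 0 within either header day in limma (2994 and 1556 unadjusted) and 869 to 1889 with 1 rat left out, the upper end without OP rat 4 and at most 1468 without an OR rat. Same-numbered OR and OP rats deviated together at r of 0.198, -0.071, 0.081 and 0.039, and 2 of the 4 OR rats correlated best with their own number, so the numbers were not taken to pair rats. Counts at 1.5-fold or more were 0 within either day in limma and 300 (172 higher, 128 lower) in the authors' values. With the repeated spots kept apart the count was 2290, and with each position averaged 2055. The share called in decile 1 of intensity was 22.1% with median centring, 6.96% with no filter on dim spots, 6.29% with OR arrays alone and 6.31% to 10.9% with 1 OR rat left out. In decile 10 it was 30.1% with median centring, 9.04% with OR arrays alone, and 8.37% to 13.6%. The median absolute log2 ratio of decile 1 was 0.169 with median centring and 0.110 to 0.128 with 1 OR rat left out. Spots with a 2-fold range numbered 100 with signal medians. Mean r between OR arrays, 0.321 as reported, was 0.442 in spots detected on all arrays and 0.402 with all flagged spots left out. OR minus OP in the median absolute ratio was -0.0675 with median centring (exact p = 0.0286) and 0.000812 in the authors' values (exact p = 0.771), where the share at 1.5-fold or more also turned (0.26 percentage points, exact p = 0.83). The cause of these shifts was not tested. For the 4 spots named for their mean, each refit was counted once per spot. Direction and call were both kept in 80 of these cases, 12 no longer passed and 0 reversed. At spots other than Sr03Sc04R13C06, the call was lost only in fits within a header day. Dim spots limit the reading, since Cy5 was detected at 80.9% of spots on the array of OR rat 3.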

Other observations

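Ratios were higher in the bottom than in the top of 12 rows of blocks on all 4 OR arrays, and on all 4 OP arrays as well. The median log2 ratio of the tested spots was -0.031 in the top row and 0.10 in the bottom row for OR rat 1. It was -0.050 and 0.057 for OR rat 2, -0.053 and 0.028 for OR rat 3, and -0.020 and 0.045 for OR rat 4. Block medians ranged from -0.13 to 0.22 on the array of OR rat 3, the widest of the 4 OR arrays. Print-tip loess, which removes such differences between blocks, gave 2013 called spots against the pool, beside 2047 as reported.

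Among the 8327 spots detected on all 4 OR arrays, OR rat 1 was the rat farthest from the median of the 4 at 38.9%, and OR rats 2, 3 and 4 at 19.1%, 19.9% and 22.2%. Among the 156 variable spots these shares were 28.2%, 25.0%, 23.7% and 23.1%.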
